A study of Mus musculus with 12 samples.

Results

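Transcript levels of the protocadherin genes were described in the hippocampus and olfactory bulb of adult mice with and without RasGRF2. The members were all genes whose probe set carries a single annotated symbol starting with Pcdh, with the probe set of highest mean over the 12 arrays standing for a symbol. This gave 34 of 19938 genes, made up of 22 clustered beta genes (Pcdhb1 to Pcdhb22) and 12 non-clustered genes. The samples were 12 one-colour arrays of total RNA in 4 groups of 3 animals, which were wild-type olfactory bulb, knockout olfactory bulb, wild-type hippocampus and knockout hippocampus. Both tissues were taken from each animal. All 6 animals were labelled C57BL/6 and adult, the knockout lacks RasGRF2 (also written GRF2), an exchange factor for Ras and Rac proteins, and the labels name no treatment. The sources used here do not describe the mutated allele, its backcrossing or the litters. The deposited values are log2 intensities, so a difference of 1 is a 2-fold change, and intensities of different probe sets cannot be set against each other.

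Protocadherins are cadherin-related adhesion molecules of the neuronal surface. In mammals the clustered genes lie in alpha, beta and gamma arrays in a single locus, and individual neurons use different combinations of them, chosen by promoter activity that depends on CTCF, cohesin and DNA methylation. The combination on a cell's surface is matched between cells by homophilic binding and is known for self-recognition of dendrites and for the sorting of axons, including those of olfactory sensory neurons in the bulb. The beta genes are short, mostly single-exon genes that carry no shared constant exons. Non-clustered protocadherins are separate genes, among which the delta1 and delta2 groups are expressed in restricted brain regions and cell layers and take part in axon outgrowth and synapse formation.

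All 22 beta genes of the gene table had a probe set with a single symbol, and all lie on chromosome 18 in the order of their numbers. The 12 non-clustered genes were the delta1 genes Pcdh1, Pcdh7, Pcdh9 and Pcdh11x, the delta2 genes Pcdh8, Pcdh10, Pcdh17, Pcdh18 and Pcdh19, and Pcdh12, Pcdh15 and Pcdh20. No alpha or gamma gene was a member. The 14 alpha symbols share 1 joint probe set, and the 22 gamma genes have no probe set with a single symbol in the annotation used here. The mean over the arrays was at or above the median of all probe sets (6.90) for 29 of the 34 genes. The others were Pcdhb1, Pcdhb5, Pcdhb12, Pcdhb21 and Pcdh12. Beta genes are close paralogs, so a probe set may also take up transcripts of a neighbouring paralog, and the value of a single beta gene is uncertain to that extent.

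The labels were checked first. Rasgrf2 was lower in knockout hippocampus by a log2 difference of -0.58 (limma adjusted p = 0.00197), while in the bulb the difference was -0.14 and did not pass (adjusted p = 0.532). The sources used here do not say which part of the gene is missing, and a probe set elsewhere in the gene checks nothing. All 8 markers of hippocampal neurons were higher, and all 8 markers of olfactory bulb neurons lower, in hippocampus than in bulb in each genotype. Within a group, the lowest correlation of a pair of arrays was 0.990 (Pearson, over probe sets), and with 3 arrays per group the number of arrays limits the precision.

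The first question was which protocadherins differ in level between the hippocampus and the olfactory bulb. Of the 34 genes, 28 passed the test in wild type, 5 higher and 23 lower in hippocampus (limma, adjusted p under 0.05 over all 19938 genes), where 40.9% of all genes passed, 17.5% as higher and 23.4% as lower. In knockout, 27 passed, 4 higher and 23 lower, where 39.1% of all genes passed, 19.2% as higher and 19.9% as lower. The values of the tissues did not overlap for 4 higher and 23 lower members in wild type (20.8% and 30.1% of all genes) and for 4 higher and 25 lower members in knockout (24.2% and 24.7% of all genes). The beta genes were on the bulb side. In each genotype 18 of 22 were lower in hippocampus and none passed as higher, with a median log2 difference of -0.53 in wild type and -0.54 in knockout. The median over all genes was -0.07 in wild type and 0.01 in knockout. In bulk tissue, more cells of a type and more RNA per cell cannot be told apart.

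When each array was centred on its median, the median of all genes moved to 0.04 in wild type and 0.08 in knockout. The share of all calls that were higher in hippocampus then went from 42.7% to 63.0% in wild type and from 49.2% to 62.8% in knockout. The beta medians stayed below 0 under this scaling, at -0.42 and -0.47. The number of protocadherins called was then 6 higher and 21 lower in wild type, and 4 higher and 22 lower in knockout.

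**Figure D1:**
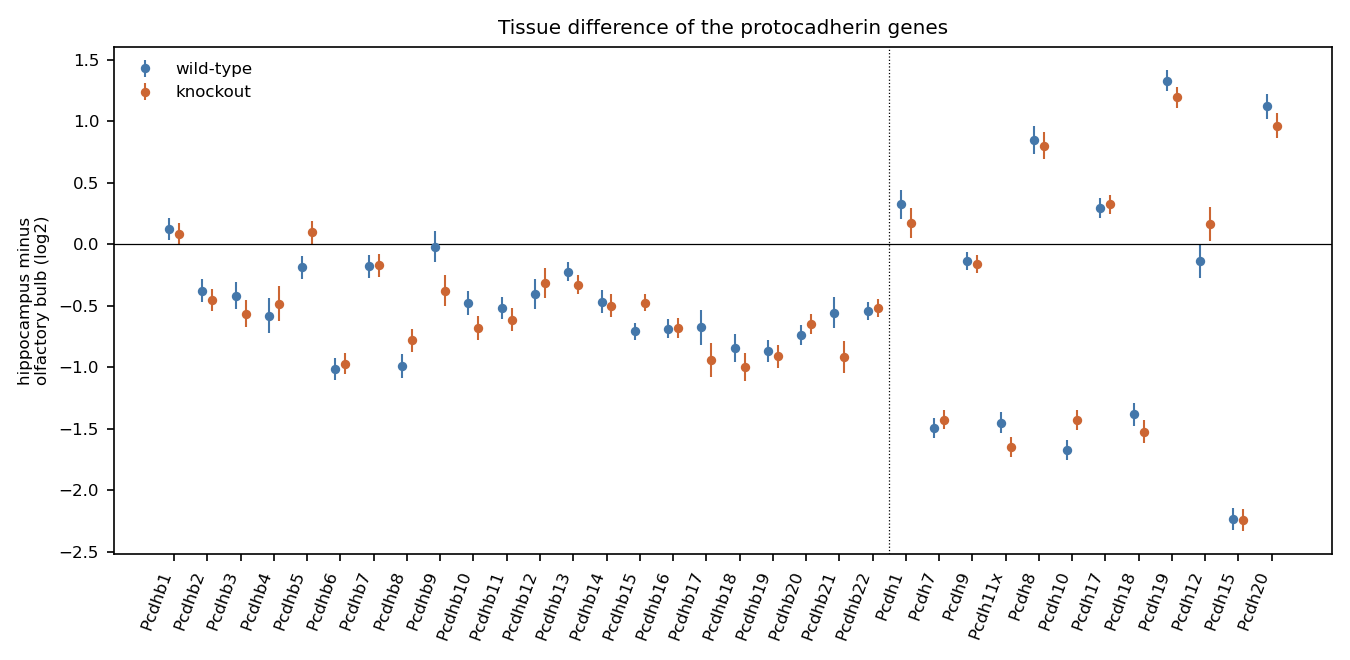
Difference of mean log2 intensity between hippocampus and olfactory bulb (vertical axis) for the 22 beta genes in chromosome order, left of the dotted line, and the 12 non-clustered genes, in wild-type (blue) and knockout (orange) mice. Points are limma estimates over 3 arrays per group and bars are standard errors. Most beta genes lie below 0, whereas the non-clustered genes run from -2.24 for Pcdh15 to 1.33 for Pcdh19.

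Among the non-clustered genes the tissue differences ran in both directions, from -2.23 to 1.33 in wild type. Pcdh15, a cadherin of inner ear tip links, had the largest difference of the 34 genes. Its wild-type levels were 9.30, 9.33 and 9.25 in the 3 bulb arrays and 7.05, 6.89 and 7.23 in the 3 hippocampus arrays. The knockout levels were 9.38, 9.31 and 9.43 in bulb and 6.99, 7.25 and 7.15 in hippocampus. The tissues did not overlap in either genotype. The log2 difference was -2.23 in wild type (SE 0.089, limma adjusted p = 3.86e-11), or 4.70-fold lower in hippocampus, and -2.24 in knockout. A second probe set of Pcdh15 had smaller differences in the same direction, -1.06 in wild type and -0.74 in knockout.

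Pcdh10, a delta2 gene involved in the outgrowth of striatal axons, read 11.10, 11.09 and 10.87 in wild-type bulb and 9.44, 9.28 and 9.31 in wild-type hippocampus. Its knockout arrays read 10.91, 10.86 and 10.76 in bulb and 9.34, 9.45 and 9.46 in hippocampus. All 6 bulb values lay above all 6 hippocampus values, with a difference of -1.68 in wild type (SE 0.080, limma adjusted p = 2.55e-10) and -1.43 in knockout. Other genes on the bulb side were the delta1 genes Pcdh7 (-1.49 in wild type and -1.43 in knockout) and Pcdh11x (-1.45 in wild type and -1.65 in knockout), the latter X-linked. The delta2 gene Pcdh18 (-1.38 in wild type and -1.52 in knockout) was the fifth. Each of these passed the test in each genotype.

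Pcdh19, an X-linked delta2 gene whose human counterpart is mutated in an epilepsy that mainly affects females, was on the hippocampal side. The wild-type arrays read 8.34, 8.30 and 8.09 in bulb and 9.57, 9.47 and 9.67 in hippocampus. The knockout arrays read 8.13, 8.20 and 8.34 and 9.46, 9.47 and 9.33. The hippocampus values were the higher ones throughout, by 1.33 in wild type (SE 0.086, limma adjusted p = 8.36e-09), or 2.51-fold, and by 1.19 in knockout. Pcdh20 read 8.81, 8.98 and 8.84 in wild-type bulb and 10.07, 9.89 and 10.03 in wild-type hippocampus. In knockout it read 8.97, 8.74 and 8.92 in bulb and 9.92, 10.002 and 9.60 in hippocampus. The tissues again did not overlap, with differences of 1.12 and 0.96. The delta2 gene Pcdh8, also called arcadlin and known as an activity-regulated gene of hippocampal synapses, was higher in hippocampus by 0.85 and 0.80. Pcdh17, a delta2 gene of corticobasal ganglia synapses, was higher by 0.30 and 0.32.

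The remaining non-clustered genes differed little between the tissues. The delta1 gene Pcdh1 was at 7.44 ± 0.054 (SD, n = 3) in wild-type bulb and 7.77 ± 0.28 in wild-type hippocampus, a difference of 0.32 (limma adjusted p = 0.0428). It passed in 7 of 17 alternative settings. It did not pass with the title number as a replicate block (adjusted p = 0.0719) nor when any 1 wild-type array other than hippocampus replicate 1 was left out (adjusted p = 0.0605 to 0.181), and in knockout its difference of 0.17 did not pass (adjusted p = 0.288). The delta1 gene Pcdh9 differed by -0.14 and -0.16 and did not pass in either genotype (adjusted p = 0.164 and 0.105). Its second probe set differed by 0.01 and -0.0045. Pcdh12, known from endothelial cells, differed by -0.14 and 0.16 and did not pass either.

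**Figure D2:**
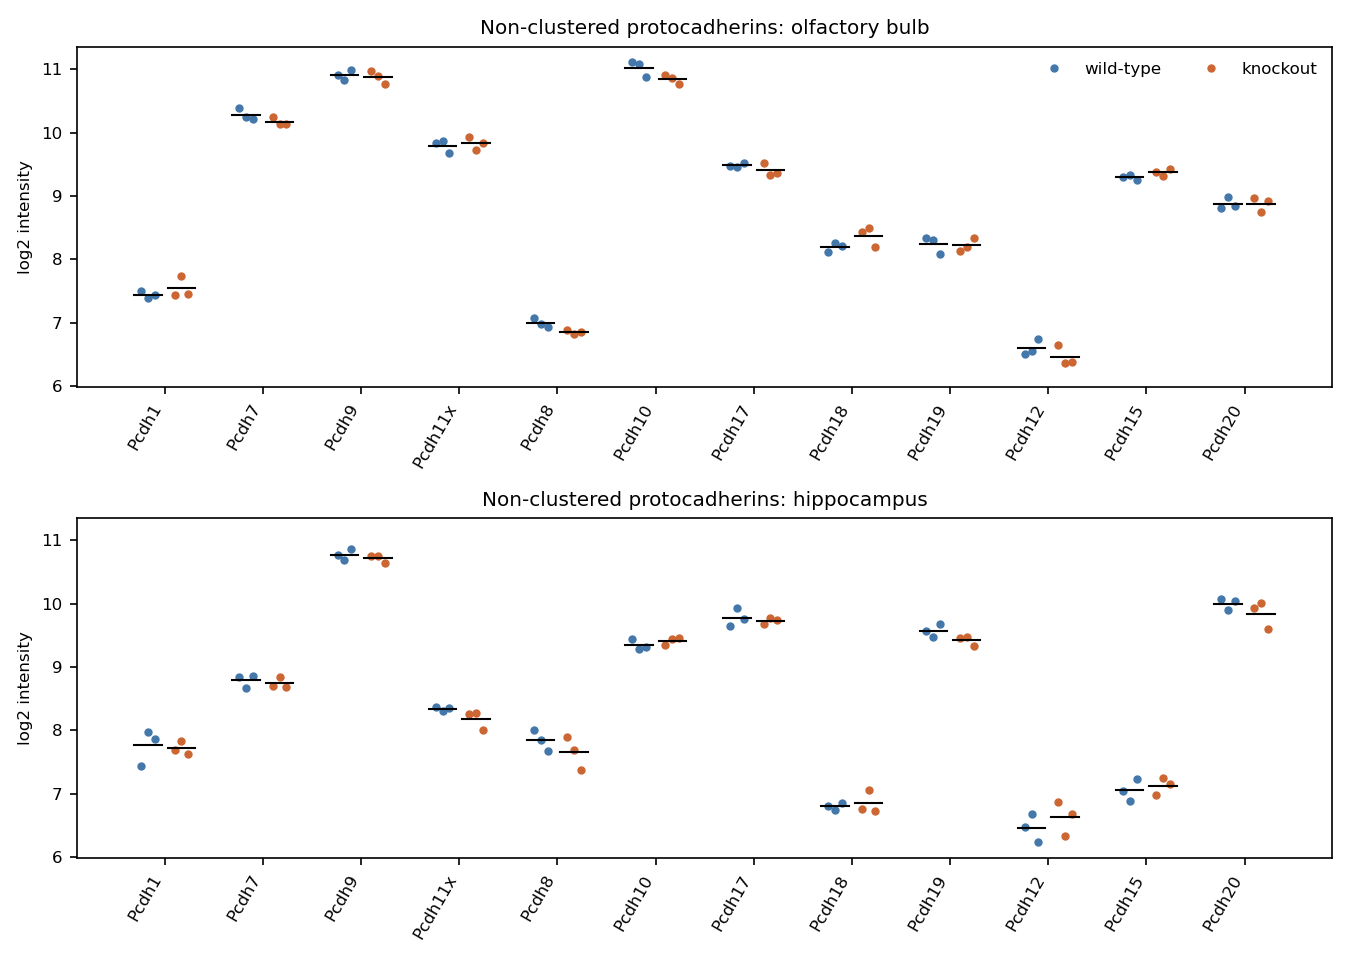
Log2 intensity (vertical axis) of the 12 non-clustered protocadherins in olfactory bulb (top) and hippocampus (bottom), 1 point per array, wild-type in blue and knockout in orange, with black bars at the mean of the 3 arrays. Pcdh7, Pcdh10, Pcdh11x, Pcdh15 and Pcdh18 are lower, and Pcdh8, Pcdh19 and Pcdh20 higher, in the lower panel, and the colours lie close together for each gene.

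Upstream sequence is shown for the pair of genes furthest on the bulb side and the pair furthest on the hippocampal side, since these carry the tissue contrast. They are the 250 bases before the annotated start of the gene in RefSeq (assembly GRCm38.p6), 5′ to 3′ on the gene's strand, with each CG dinucleotide in capitals. The window lies at chr10:73821617-73821866 on the plus strand for Pcdh15, at chr3:45378148-45378397 on the plus strand for Pcdh10, at chrX:133688994-133689243 on the minus strand for Pcdh19 and at chr14:88471397-88471646 on the minus strand for Pcdh20.
Pcdh15: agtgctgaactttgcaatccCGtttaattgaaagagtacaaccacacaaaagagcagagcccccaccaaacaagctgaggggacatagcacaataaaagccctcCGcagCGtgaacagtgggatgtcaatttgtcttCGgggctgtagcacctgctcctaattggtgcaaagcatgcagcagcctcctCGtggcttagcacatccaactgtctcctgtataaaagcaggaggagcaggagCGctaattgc
Pcdh10: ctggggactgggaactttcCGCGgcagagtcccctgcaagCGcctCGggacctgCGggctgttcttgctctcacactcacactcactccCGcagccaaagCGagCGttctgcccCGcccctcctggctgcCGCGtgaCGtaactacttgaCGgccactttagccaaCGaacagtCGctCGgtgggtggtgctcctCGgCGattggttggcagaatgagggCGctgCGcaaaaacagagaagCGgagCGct
Pcdh19: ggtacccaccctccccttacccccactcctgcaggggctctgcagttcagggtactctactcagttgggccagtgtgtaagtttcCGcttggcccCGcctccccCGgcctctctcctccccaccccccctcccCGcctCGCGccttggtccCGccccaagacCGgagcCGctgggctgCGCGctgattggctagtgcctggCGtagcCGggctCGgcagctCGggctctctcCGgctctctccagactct
Pcdh20: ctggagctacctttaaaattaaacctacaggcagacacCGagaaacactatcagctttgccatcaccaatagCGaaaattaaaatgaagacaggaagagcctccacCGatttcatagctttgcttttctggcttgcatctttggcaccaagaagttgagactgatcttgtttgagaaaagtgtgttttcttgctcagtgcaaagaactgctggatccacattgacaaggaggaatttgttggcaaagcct

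The number of CG dinucleotides did not follow the tissue side in these windows. Pcdh10 had 22 and Pcdh15 had 6 on the bulb side, and Pcdh19 had 16 and Pcdh20 had 3 on the hippocampal side, where the median of 32851 promoter windows of this length was 6. The RefSeq promoter table held 9 of the 34 members (Pcdh7, Pcdh8, Pcdh9, Pcdh10, Pcdh15, Pcdh17, Pcdh18, Pcdh19 and Pcdh20). Short motifs, none of which contains another, were searched on both strands. The TATA box core TATAAA was found in the windows of Pcdh8 and Pcdh15 (12.4% of all windows hold it). The GC box core GGGCGG was found in those of Pcdh10, Pcdh17, Pcdh18 and Pcdh19 (32.7% of all). The E-box CAGCTG was found in none of the 9 (13% of all). These matches describe the windows and show no binding.

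Along the beta array, the levels are given from Pcdhb1 to Pcdhb22 as mean log2 intensity ± SD of 3 arrays. Pcdhb1, at the start of the array, read 5.47 ± 0.14 in wild-type bulb and 5.59 ± 0.061 in wild-type hippocampus, with no tissue call in either genotype. Pcdhb2 read 7.53 ± 0.084 and 7.16 ± 0.19, a tissue difference of -0.38 (limma adjusted p = 0.00363). Pcdhb3 read 7.18 ± 0.18 and 6.76 ± 0.075, a difference of -0.42 in wild type and -0.56 in knockout. Pcdhb4 read 7.85 ± 0.22 and 7.27 ± 0.27, with differences of -0.58 and -0.48, of which the knockout call was lost without knockout bulb replicate 4 (adjusted p = 0.0586) or 6 (adjusted p = 0.0542). Pcdhb5 also had no tissue call, with 6.71 ± 0.028 and 6.52 ± 0.16. The largest tissue difference of a beta gene in wild type was that of Pcdhb6, which read 8.12 ± 0.11 in bulb and 7.10 ± 0.17 in hippocampus. The difference was -1.02, or 2.02-fold (SE 0.089, limma adjusted p = 2.44e-07), and it was -0.97 in knockout. Pcdhb8 was nearly as far apart, at 8.02 ± 0.11 against 7.02 ± 0.11 and differences of -0.99 and -0.78. Between these lies Pcdhb7, which read 7.19 ± 0.12 and 7.01 ± 0.15 and was not called in either genotype. The tissue difference did not change evenly along the array, since a gene without a call lay between the pair with the largest wild-type differences.

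Pcdhb9 read 6.89 ± 0.33 in wild-type bulb and 6.87 ± 0.12 in wild-type hippocampus and was called in knockout only, where its difference of -0.38 (adjusted p = 0.026) did not pass after centring each array on its median. It was also lost without knockout bulb replicate 5 (adjusted p = 0.0858) or knockout hippocampus replicates 4 (adjusted p = 0.0649) or 6 (adjusted p = 0.0901). The interaction of genotype and tissue was not called for this gene (-0.36, SE 0.177, adjusted p = 0.489). Pcdhb10 to Pcdhb14 were lower in wild-type hippocampus by 0.22 to 0.52 log2 units. Pcdhb10 read 7.49 ± 0.11 in bulb and 7.02 ± 0.16 in hippocampus, Pcdhb11 7.22 ± 0.13 and 6.71 ± 0.029, and Pcdhb14 7.27 ± 0.16 and 6.80 ± 0.095. Pcdhb12 (-0.40, adjusted p = 0.0146) and Pcdhb13 (-0.22, adjusted p = 0.028) had the highest adjusted p of these. After centring each array on its median neither passed (adjusted p = 0.0763 and 0.314), and Pcdhb13 did not pass with the animal as a replicate block (adjusted p = 0.0601). Leaving out 1 array also ended the wild-type call of Pcdhb12 (bulb replicate 2 or hippocampus replicate 1, adjusted p = 0.0585 and 0.0806) and that of Pcdhb13 (bulb replicates 2 or 3 or hippocampus replicates 2 or 3, adjusted p = 0.0525 to 0.12). In knockout Pcdhb13 was called (-0.33, adjusted p = 0.00258) and Pcdhb12 was not (-0.31, adjusted p = 0.0523).

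From Pcdhb15 to Pcdhb22 every gene was called lower in hippocampus in each genotype. Pcdhb15 read 9.09 ± 0.025 in wild-type bulb and 8.38 ± 0.067 in wild-type hippocampus, and Pcdhb16 read 8.06 ± 0.026 and 7.37 ± 0.019. Pcdhb17 read 7.39 ± 0.23 and 6.71 ± 0.16, with wider spread between animals. Within this stretch the largest wild-type differences were those of Pcdhb19 (-0.87 in wild type and -0.91 in knockout) and Pcdhb18 (-0.85 in wild type and -0.999 in knockout). Pcdhb20 differed by -0.74 and -0.65. At the end of the array, Pcdhb21 (-0.56 in wild type and -0.92 in knockout) had the larger difference in knockout, without a called interaction (adjusted p = 0.489), and Pcdhb22 differed by -0.54 and -0.52.

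**Figure D3:**
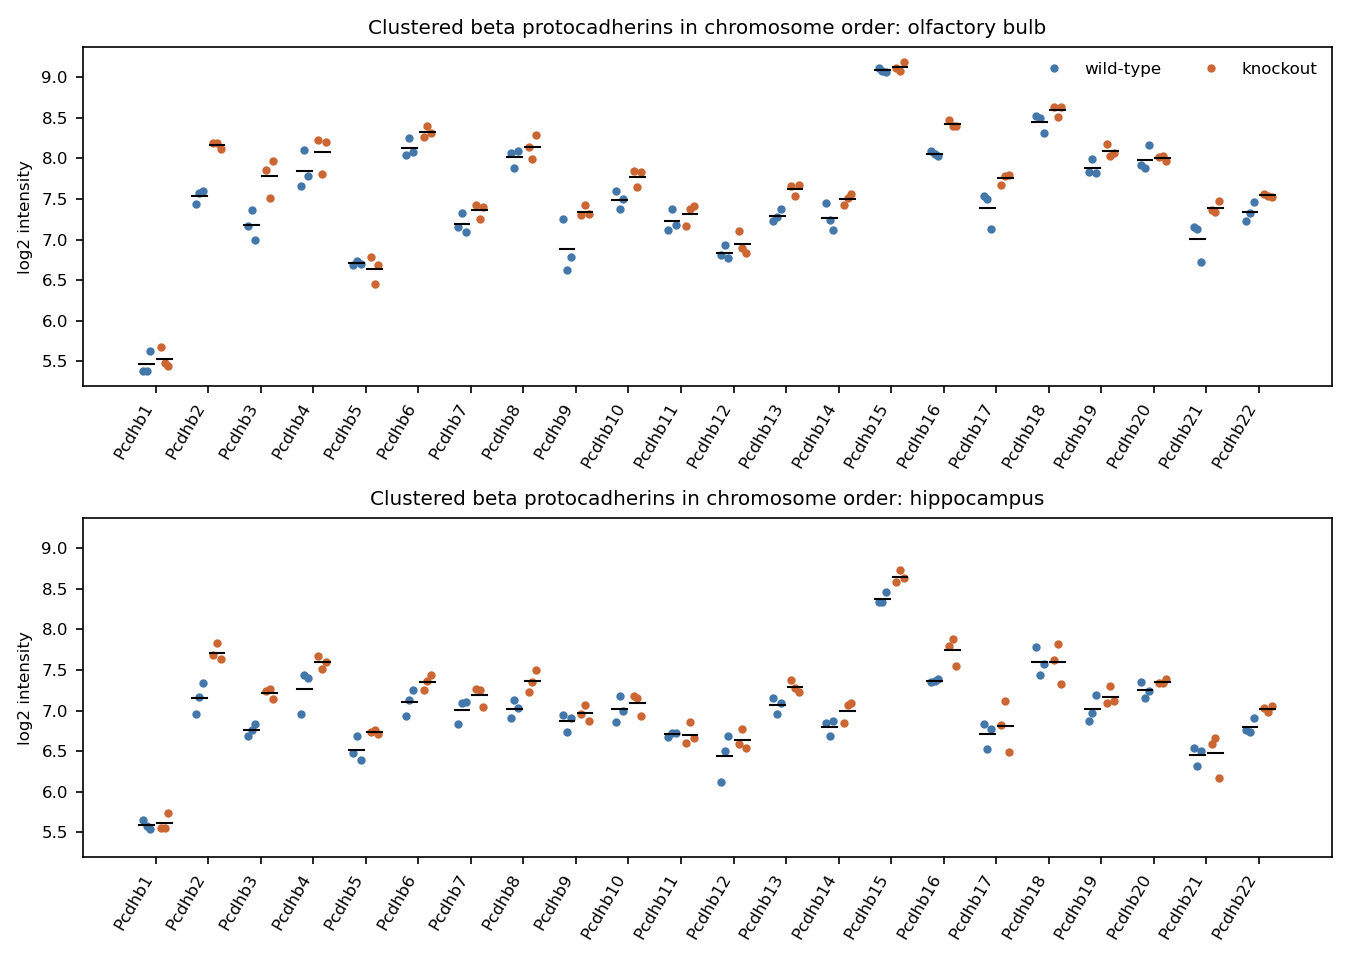
Log2 intensity (vertical axis) of the 22 beta genes in chromosome order, in olfactory bulb (top) and hippocampus (bottom), 1 point per array, wild-type in blue and knockout in orange, with black bars at the mean of the 3 arrays. The colours are furthest apart at Pcdhb2 in each panel, and most genes sit lower in the bottom panel.

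The second question was whether loss of RasGRF2 changed the level of any protocadherin. Only beta genes passed the test, and each that passed was higher in knockout. In hippocampus 1 of 34 members was called, Pcdhb2, where 0.256% of all genes were called and 0.145% were called as higher. In olfactory bulb 2 of 34 were called, Pcdhb2 and Pcdhb3, where 0.411% of all genes were called and 0.186% as higher. With the tissues of each animal averaged, 3 of 34 were called, Pcdhb2, Pcdhb3 and Pcdhb16, where 0.577% of all genes were called and 0.311% as higher.

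Pcdhb2 read 7.44, 7.57 and 7.59 in the wild-type bulb arrays and 8.19, 8.19 and 8.12 in the knockout bulb arrays. In hippocampus it read 6.96, 7.17 and 7.34 in wild type and 7.68, 7.83 and 7.63 in knockout. Every knockout value lay above every wild-type value of its tissue. The log2 difference was 0.63 in bulb (SE 0.091, limma adjusted p = 0.00441), or 1.55-fold, and 0.56 in hippocampus (SE 0.091, limma adjusted p = 0.0134), or 1.47-fold. The bulb call passed in 15 of 15 alternative settings and the hippocampal call in 11 of 15. The hippocampal call was lost in a fit to the 6 hippocampus arrays alone (adjusted p = 0.111) and without wild-type replicate 1 (0.46, adjusted p = 0.0725), knockout replicate 4 (0.57, adjusted p = 0.0518) or knockout replicate 5 (0.50, adjusted p = 0.0902). Averaged over the tissues, the difference was 0.60 (SE 0.064, limma adjusted p = 0.000938), with animal means of 7.30, 7.26 and 7.47 in wild type and 7.93, 8.01 and 7.87 in knockout.

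Pcdhb3, the next gene along the array, read 7.17, 7.37 and 6.997 in wild-type bulb and 7.85, 7.51 and 7.97 in knockout bulb. In hippocampus it read 6.68, 6.76 and 6.83 in wild type and 7.24, 7.27 and 7.14 in knockout. The genotypes did not overlap in either tissue, although the spread in bulb was wider than for Pcdhb2. The difference in bulb was 0.60 (SE 0.112, limma adjusted p = 0.0345), or 1.52-fold, and passed in 9 of 15 alternative settings. It was lost without wild-type replicate 1 (0.60, adjusted p = 0.114), wild-type replicate 3 (0.51, adjusted p = 0.0835), knockout replicate 4 (0.56, adjusted p = 0.128) or knockout replicate 6 (0.50, adjusted p = 0.186), with every probe set kept and with the 6 bulb arrays alone. In hippocampus the difference of 0.45 did not pass (adjusted p = 0.173). Averaged over the tissues it was 0.53 (SE 0.060, limma adjusted p = 0.00149) and passed in 14 of 14 settings.

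Pcdhb16 read 8.09, 8.05 and 8.03 in wild-type bulb and 8.48, 8.40 and 8.40 in knockout bulb. In hippocampus it read 7.36, 7.36 and 7.39 in wild type and 7.80, 7.88 and 7.55 in knockout. The wild-type arrays lay close together in each tissue and below all knockout arrays. The differences were 0.37 in bulb (adjusted p = 0.0685) and 0.37 in hippocampus (adjusted p = 0.0872), which did not pass. The average of 0.37 (SE 0.057, limma adjusted p = 0.0114), or 1.29-fold, passed, and it passed in 10 of 14 alternative settings. It was lost with every probe set kept (adjusted p = 0.0882) and without the animals numbered 1, 4 or 5 in the bulb (adjusted p = 0.0588, 0.0778 and 0.0611).

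Further beta genes had small p-values that did not pass. At an unadjusted p under 0.05 in limma there were 11 of 22 beta genes in hippocampus, 12 in bulb and 17 in the average. These counts include the called genes. Of all genes, 8.91%, 11.3% and 9.93% reached that level. Only the uncalled genes of smallest p are named here, apart from those described above. In bulb these were Pcdhb13 (0.33, adjusted p = 0.0931) and Pcdhb9 (0.46, adjusted p = 0.193). In the bulb Pcdhb9 read 7.25, 6.62 and 6.78 in wild type and 7.30, 7.42 and 7.31 in knockout, so that wild-type replicate 1 lay near the knockout arrays, and without it the difference was 0.64 (adjusted p = 0.0085). In hippocampus the next was Pcdhb15 (0.27, adjusted p = 0.182). Averaged over the tissues they were Pcdhb13 (0.28, adjusted p = 0.0661), Pcdhb9 (0.28, adjusted p = 0.12) and Pcdhb6 (0.22, adjusted p = 0.144).

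Most of the other beta genes also had knockout means above the wild-type means, by less than the test could call. The difference was above 0 for 20 of 22 beta genes in hippocampus, where 63% of all genes lay above 0, with a median of 0.20 against 0.03 over all genes. The exceptions were Pcdhb11 and Pcdhb18, at -0.0011 and -0.0036. In olfactory bulb it was above 0 for 21 of 22, where 44.5% of all genes lay above 0, with a median of 0.20 against -0.02, the exception being Pcdhb5 (-0.07). Averaged over the tissues it was above 0 for 22 of 22, where 55.4% of all genes lay above 0, with a median of 0.21 against 0.01. The genotypes did not overlap, with knockout higher, for 9 of 22 beta genes in hippocampus (9.39% of all genes), for 11 of 22 in bulb (8.22% of all genes) and for 13 of 22 in the animal averages (9.32% of all genes). Genes of the array are not independent of each other, and these counts are a description.

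For the beta genes not yet described, the estimates in the 2 tissues are given side by side, and no interaction was called for any of them. Pcdhb21 (0.39 in bulb and 0.03 in hippocampus), Pcdhb17 (0.36 in bulb and 0.10 in hippocampus) and Pcdhb10 (0.28 in bulb and 0.08 in hippocampus) had the larger estimate in bulb. Pcdhb8 (0.13 in bulb and 0.34 in hippocampus) and Pcdhb4 (0.23 in bulb and 0.32 in hippocampus) had the larger one in hippocampus. In Pcdhb22 (0.20 in bulb and 0.22 in hippocampus), Pcdhb14 (0.23 in bulb and 0.20 in hippocampus) and Pcdhb7 (0.17 in bulb and 0.18 in hippocampus) the estimates lay close together. With bulb given first, at least 1 of the estimates lay below 0.10 for Pcdhb1 (0.07 and 0.03), Pcdhb11 (0.09 and -0.0011), Pcdhb18 (0.15 and -0.0036) and Pcdhb20 (0.02 and 0.11). Those of Pcdhb12 (0.11 and 0.20) and Pcdhb19 (0.20 and 0.16) were above 0 in both tissues, while Pcdhb5 was below 0 in bulb (-0.07) and above it in hippocampus (0.22).

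**Figure D4:**
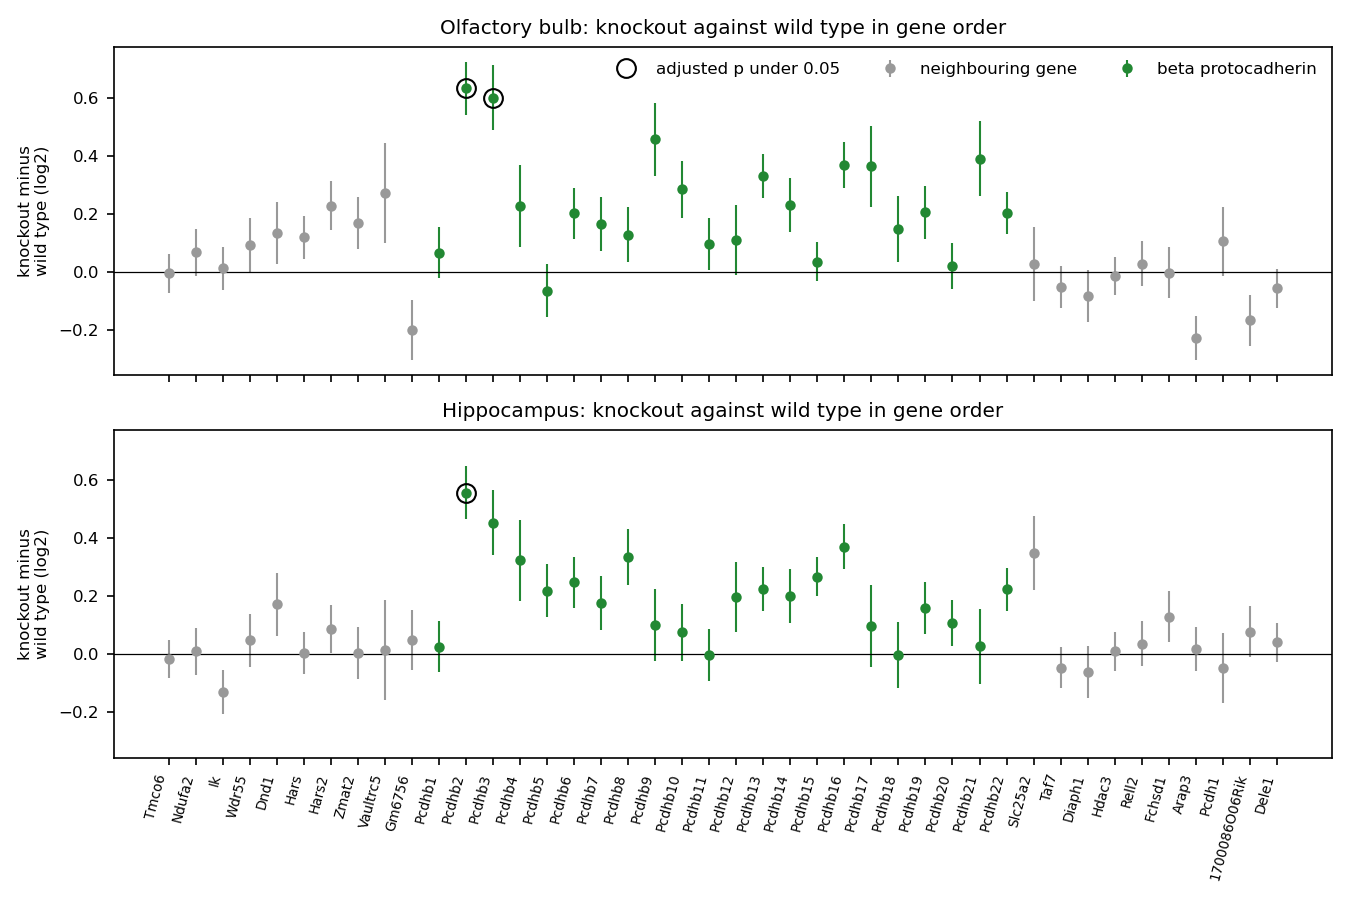
Knockout minus wild-type log2 difference (vertical axis) in olfactory bulb (top) and hippocampus (bottom) for the 22 beta genes (green) and the 10 measured genes on either side (grey), in gene order. Alpha and gamma genes have no single-symbol probe set and are not shown. Points are limma estimates over 3 arrays per group, bars are standard errors and circles mark adjusted p under 0.05. The circled genes are Pcdhb2 and Pcdhb3 in bulb and Pcdhb2 in hippocampus, while no neighbour is circled.

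The 10 measured genes on either side of the beta array were examined in the same fits. Only genes with a single-symbol probe set counted as measured, so the alpha and gamma genes of the locus are not among them. None of the 20, which include the member Pcdh1, was called in limma in hippocampus, bulb, the average or the interaction. Over all genes these shares were 0.256%, 0.411%, 0.577% and 0.015%. At an unadjusted p under 0.05 there was 1 in hippocampus, with 2 in bulb, 2 in the average and 1 in the interaction. Of all genes, 8.91%, 11.3%, 9.93% and 10.7% reached that level, so these counts of 20 lie near or below those shares. In bulb the median log2 difference was 0.11 over the 10 genes before the array and -0.03 over the 10 after it. In hippocampus these medians were 0.01 and 0.03. Slc25a2, a mitochondrial carrier gene and the next measured one after Pcdhb22, had the largest hippocampal difference of the 20, at 0.35. Between tissues, 11 of the 20 were called in wild type (40.9% of all genes) and 7 in knockout (39.1%), among them Zmat2 (1.34 and 1.18) and Diaph1, an actin nucleator (0.67 and 0.69), both higher in hippocampus.

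Over the 22 beta genes together, the mean log2 intensity was 7.47 ± 0.034 (SD, n = 3) in wild-type bulb and 7.70 ± 0.050 in knockout bulb. It was 6.95 ± 0.055 in wild-type hippocampus and 7.15 ± 0.071 in knockout hippocampus. Relative to the wild-type mean of the tissue, the knockout arrays stood at 0.27, 0.18 and 0.26 in bulb and at 0.19, 0.28 and 0.14 in hippocampus, and the wild-type arrays between -0.05 and 0.06. All 6 knockout arrays lay above the wild-type arrays of their tissue. These arrays hold both tissues of 3 knockout animals, so they are not 6 independent replicates. Knockout hippocampus replicate 6 had the lowest of these values, and 17 of its 22 beta values lay above the wild-type mean, against 20 and 21 in the other knockout hippocampus arrays. In that array 58.9% of all genes lay above the wild-type mean. In knockout bulb, 18 to 21 of 22 beta values lay above it, against 41.9% to 50.7% of all genes.

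**Figure D5:**
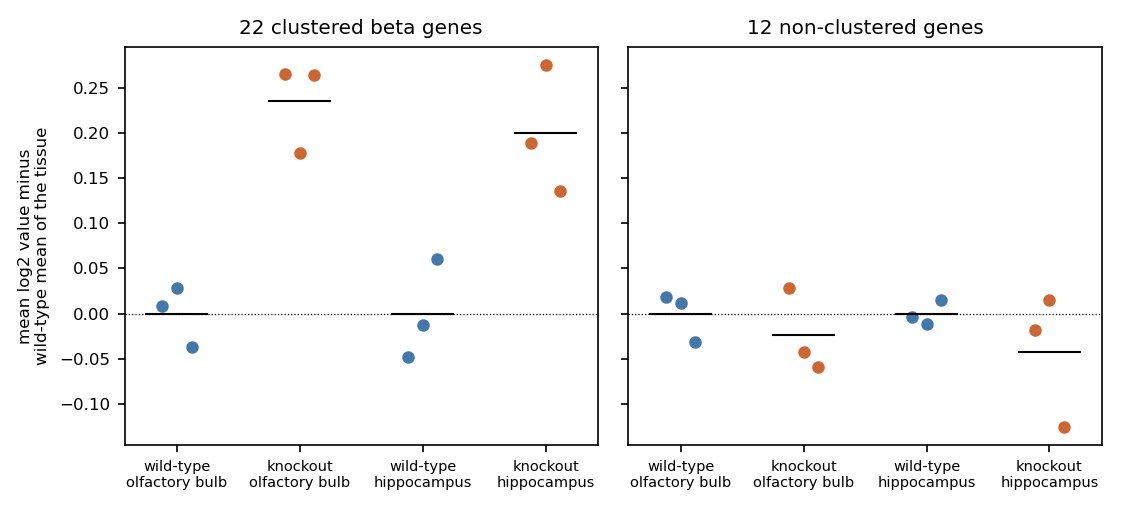
Mean log2 value over the 22 beta genes (left) and the 12 non-clustered genes (right) in each array, minus the wild-type mean of its tissue (vertical axis). Points are arrays, with wild-type in blue and knockout in orange, and black bars are group means. The 6 knockout arrays, which come from 3 animals, lie at 0.14 to 0.28 in the left panel and at -0.13 to 0.03 in the right panel.

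Of the 12 non-clustered genes none was called in limma between genotypes in either tissue or in the average. At an unadjusted p under 0.05 there were 0 in hippocampus, 1 in bulb and 1 in the average, where 8.91%, 11.3% and 9.93% of all genes reached that level. The difference was above 0 for 4 of 12 in hippocampus, 5 of 12 in bulb and 4 of 12 in the average, with medians of -0.05, -0.03 and -0.06. The single differences ran from -0.19 (Pcdh8) to 0.17 (Pcdh12) in hippocampus and from -0.17 (Pcdh10) to 0.18 (Pcdh18) in bulb. Knockout arrays lay wholly below wild-type arrays for Pcdh11x (-0.16) and Pcdh19 (-0.15) in hippocampus and for Pcdh8 (-0.14) in bulb, without a call (3.66% and 8.87% of all genes did so). In the animal averages Pcdh7 and Pcdh19 lay wholly below (5.82% of all genes did so). No non-clustered gene lay wholly above in any of the 3 comparisons.

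The third question was whether the knockout effect differed between the tissues. No protocadherin passed the interaction test in limma, where 0.015% of all genes were called and 3 of 34 members had an unadjusted p under 0.05 (10.7% of all genes did). The smallest p was that of Pcdhb15, for which the effect was 0.03 in bulb and 0.27 in hippocampus, a difference of 0.23 (SE 0.095, adjusted p = 0.419). For Pcdhb2 the effects differed by -0.07 (SE 0.129), for Pcdhb3 by -0.15 (SE 0.159) and for Pcdhb16 by 0.0040 (SE 0.112).

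Genes that act on or with protocadherins were examined from lists. Of 13 regulators of the clustered genes, none was called between genotypes in limma in hippocampus, bulb or the average (0.256%, 0.411% and 0.577% of all genes). In the same comparisons 0 had an unadjusted p under 0.05 (8.91%, 11.3% and 9.93% of all genes). At these shares, 0 among 13 genes says little about the regulators. Their differences lay above 0 for 7 of 13 in hippocampus, 10 in bulb and 9 in the average. Of all genes, 63%, 44.5% and 55.4% lay above 0. The medians were 0.0010 in hippocampus, 0.08 in bulb and 0.03 in the average. Array means over the 13 were 8.59 to 8.66 in wild-type bulb and 8.67 to 8.69 in knockout bulb. In hippocampus they were 8.29 to 8.40 in wild type and 8.25 to 8.41 in knockout. The insulator protein gene Ctcf differed by -0.05 in hippocampus and 0.16 in bulb, and Smchd1, a repressor of clustered protocadherins in mice, by -0.03 and 0.01. Between tissues, 1 was higher and 8 were lower in wild-type hippocampus, and 0 and 9 in knockout (17.5% and 23.4% of all genes in wild type, 19.2% and 19.9% in knockout), among them the methyltransferase gene Dnmt3a (-0.76 and -0.71) and the cohesin genes Smc3 (-0.51 and -0.53) and Rad21 (-0.49 and -0.59). The cohesin loader gene Nipbl was also lower (-0.40 and -0.51). The cohesin release gene Wapl was higher in wild type (0.34) and not called in knockout (0.18).

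Of 14 measured binding, processing and signalling partners, 1 was called between genotypes in hippocampus (0.256% of all genes) and in the average (0.577%), and 0 in bulb (0.411%). This was Ret, a receptor kinase that associates with and phosphorylates protocadherins, which was higher in knockout hippocampus by 0.39 (SE 0.070, adjusted p = 0.0271) and in the average by 0.30 (adjusted p = 0.0231), but not in bulb (0.22, adjusted p = 0.28). Between tissues 6 were higher and 3 lower in hippocampus in each genotype, where 40.9% of all genes were called in wild type and 39.1% in knockout, the higher ones including Wasf1 (1.32 in wild type), Abi1 (0.93) and Nckap1 (0.72) of the WAVE complex, which binds delta2 protocadherins. Of 29 other cadherin superfamily genes, none was called between genotypes in limma, and 2 in hippocampus, 4 in bulb and 5 in the average had an unadjusted p under 0.05 (8.91%, 11.3% and 9.93% of all genes). Between tissues 5 were higher and 19 lower in wild-type hippocampus (17.5% and 23.4% of all genes) and 5 and 17 in knockout (19.2% and 19.9%). Cdhr1, a marker of mitral and tufted cells, differed by -3.98 in wild type and Cdh4 by -2.05, whereas Cdh9, a cadherin of hippocampal mossy fibre synapses, was higher by 3.00 and Cdh8 by 1.75.

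Markers of the cell types the tissues could hold were set beside the genotype differences. None of the 62 markers was called in limma in hippocampus, bulb or the average (0.256%, 0.411% and 0.577% of all genes). An unadjusted p under 0.05 was found for 8 in hippocampus, 13 in bulb and 14 in the average (8.91%, 11.3% and 9.93% of all genes). In hippocampus these were 3 mature oligodendrocyte and 2 meningeal markers, with 1 each for bulb neurons, choroid plexus and astrocytes. In bulb they were 4 markers of oligodendrocyte precursors and 2 each of sensory axons and epithelium, endothelium and astrocytes. The others in bulb were 1 each of bulb neurons, meninges and microglia. Over all genes, 63% of the differences lay above 0 in hippocampus and 44.5% in bulb. In bulb, markers of bulb neurons lay above 0 for 8 of 8 (median 0.12), with array means of 9.53 to 9.59 in wild type and 9.66 to 9.73 in knockout. Markers of oligodendrocyte precursors lay below 0 for 6 of 6 (median -0.22), with array means of 7.82 to 7.93 and 7.59 to 7.72. In hippocampus, markers of mature oligodendrocytes lay above 0 for 5 of 5 (median 0.28, array means 8.75 to 8.86 and 8.81 to 9.19). Markers of olfactory sensory axons and epithelium lay above 0 for 6 of 6 there (median 0.13, array means 6.09 to 6.36 and 6.26 to 6.42). These array means lay below the median of all probe sets (6.90), and 0 of the 6 had an unadjusted p under 0.05. Endothelial markers lay below 0 for 6 of 6 there (median -0.15, array means 7.88 to 8.07 and 7.78 to 7.89), and markers of meninges for 4 of 6 (median -0.46, array means 7.65 to 8.35 and 7.59 to 7.68). In bulb, endothelial and meningeal markers lay below 0 for 5 of 6 each (medians -0.09 and -0.14), and markers of olfactory sensory axons and epithelium for 3 of 6 (median -0.04), with array means of 7.29 to 8.31 in wild type. Medians of the hippocampal neuron, choroid plexus, astrocyte and microglia markers lay between -0.06 and 0.07 in each tissue. The part of these cell types in the protocadherin differences was not tested.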

How the data were processed

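Total RNA of hippocampus and olfactory bulb was hybridised to 12 one-colour arrays, 1 per sample. The authors deposited 1 log2 intensity per probe set and array, made with RMA and the oligo package per the submitters' processing notes. RMA background-corrects, quantile-normalizes and summarises probes, which compresses differences near background. The sources used here give no versions, genome build or batches. Of 35556 probe sets, 21789 had 1 symbol in the platform annotation, 1621 several, and 12146 are absent from it and have no name here. A RefSeq gene list (GRCm38.p6), used for names and gene order, held 21698 of the single-symbol ones. The probe set of highest mean stood for each of 19938 genes, and no gene was filtered out. Arrays carry no depth, and the difference of a replicate pair had an SD of 0.212 to 0.297 over probe sets, so none was a copy.

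Groups came from the titles. limma 3.58.1 in R 4.3.3 (lmFit, eBayes, Benjamini-Hochberg over 19938 genes, threshold 0.05) fitted 4 group means over 12 arrays. For the average over the tissues, each animal's tissues were averaged first by the animal code in the labels, 3 animals against 3. Code and title number pair the tissues differently for a pair of wild-type animals. Deviations from group means of samples with the same code correlated at -0.255, 0.116 and -0.073 in wild type and at 0.016, 0.018 and -0.208 in knockout. Wild-type samples with the same title number correlated at 0.252, -0.153 and -0.073. The titles name an animal too, so the labels leave the pairing of these wild-type animals unsettled. The code was used here, and fits with the code or the title number as a block were run as alternatives. The 10 genes on either side of the beta array follow this list's order.

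The members, the role groups, the gene lists and the settings were chosen with earlier results of these data known. The genes named were all members, by level or by test, with up to 3 uncalled members of smallest p per genotype comparison. From each gene list they were called members (at most 6 by p) and up to 2 others. Named neighbours beyond the called ones, which were none between genotypes, were chosen after their values were seen. Alternatives changed the scaling, the probe-set rule, a filter on dim probe sets, the moderation, array weights, the arrays fitted, the block and the replicates left out. The pipeline was tested on simulated data with independent noise for each gene. Its pass rule covered only changes larger than the genotype differences called here. Figures were drawn with matplotlib in Python.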

Additional observations from a re-analysis of the deposited data

How the results depend on the processing

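No called protocadherin difference changed direction under any alternative run. In hippocampus, 1 protocadherin was called between genotypes; 2 were called with a filter on dim probe sets, 4 with array weights, 0 in a fit to the 6 hippocampus arrays alone, and 0 to 2 when a replicate was left out, with 0 without wild-type replicate 1, knockout replicate 4 or knockout replicate 5. In bulb, where 2 were called, 1 was called with every probe set kept, 4 with the dim filter, 1 in a fit to the 6 bulb arrays alone, and 1 to 2 when a replicate was left out. The cause of these changes was not tested. In the average over the tissues 2 to 4 were called, between tissues 25 to 28 in wild type and 26 to 29 in knockout, and in the interaction 0 throughout. With the animal code as a fixed replicate block, 27 were called between tissues in wild type (5 higher and 22 lower) and 28 in knockout. With the title number as the block, 26 and 28 were called. With the code as a random block, 1 was called between genotypes in hippocampus, 2 in bulb, and 27 between tissues in each genotype. The median of the beta genes, an alternative added after seeing the data, ran from 0.15 to 0.24 in hippocampus, 0.17 to 0.23 in bulb and 0.19 to 0.22 in the average. It was taken over all 22, except that the dim filter removed Pcdhb1, Pcdhb5, Pcdhb12 and Pcdhb21. The highest value in the average came from that filter. Over all genes the counts moved more. In hippocampus 51 were called, against 336 with array weights, 28 in the 6 arrays alone, and 30, 33 and 32 without wild-type replicates 1 and 3 and knockout replicate 5. In bulb 82 were called, against 41 with every probe set kept, 136 with trend and robust moderation, 36 in the 6 arrays alone and 35 to 105 with a replicate left out. In the average 115 were called, against 39 with every probe set kept, 181 with trend and robust moderation, and 69 without the animal numbered 1 or 4 in the bulb. In the interaction 3 were called, against 0 with every probe set kept and 12 with array weights. Signal limits Pcdhb1, Pcdhb5, Pcdhb12, Pcdhb21 and Pcdh12, whose means lay below the median of all probe sets.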

Other observations

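The alpha protocadherins could be read only through their joint probe set, which carries 14 symbols and belongs to no member. It read 7.66 ± 0.11 (SD, n = 3) in wild-type bulb, 7.66 ± 0.026 in knockout bulb, 7.29 ± 0.046 in wild-type hippocampus and 7.33 ± 0.14 in knockout hippocampus. The difference of hippocampus from bulb was -0.37 in wild type (limma adjusted p = 0.00443, adjusted over all probe sets) and -0.33 in knockout (adjusted p = 0.00839). Between genotypes the differences were 0.04 in hippocampus and -0.0020 in bulb and did not pass.

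Deviations from the group means were compared between pairs of genes over the 12 arrays, as a description. The mean Pearson r was 0.11 over the 231 pairs of beta genes, 0.11 over the 21 pairs next to each other on the chromosome, 0.10 over the 66 pairs of non-clustered genes and 0.02 over all pairs of genes tested. All pairs were taken over the same 12 arrays, and the beta genes also have similar sequence.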
